A study of Danio rerio with 16 samples.

Results

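Steady embryonic poly(A) sites lost in the adult are places where polyadenylated RNA ended at similar levels in zebrafish embryos at 24 and 72 hours post fertilization (hpf) and at far lower levels in adult fish. They were chosen by their tag counts in 3P-Seq, a method that sequences the 3′ ends of polyadenylated RNA. A member had at least 3 CPM (tags scaled to 1000000 per library) in each embryo library, differed by at most 2-fold between them, and had an adult level of at most 1/8 of the smaller embryo level. Of 90940 clusters of 3′ ends, 7859 were steady in the embryos by this rule, and 881 of those were members, 11.2% of the steady sites. Chromosome M, chromosome 4 from 28 Mb and chromosome 22 from 25 to 26.5 Mb were left out of the choice. Since the same counts chose the members, their stage levels are given as a description, with no test.

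The samples were wild-type whole embryos at 24 hpf, wild-type whole embryos at 72 hpf and wild-type whole adults of mixed gender, all grown under standard conditions, with 1 library per stage. They held 7423152, 9813481 and 7470435 tags, in that order. The remaining 13 samples, of chromatin and RNA-Seq, are not used here. How many animals were pooled is not given in the sources used here.

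A poly(A) site is where a nascent transcript is cut and given its poly(A) tail. A short signal upstream of the cut recruits the cleavage machinery, and many genes carry several such sites in a row, so that a choice among them sets the length of the 3′ untranslated region. The downstream sites of a gene give the longer forms, which can carry more target sites for microRNAs and RNA-binding proteins. A site can therefore be missing from a stage because the whole transcript is missing, or because the transcript ends elsewhere, and the neighbouring sites on the same strand tell these cases apart in part. All positions are 1-based danRer7 (Zv9) coordinates with the display offset of 1 from the file headers added. Whether the positions need that offset could not be checked here, so each may be 1 too high. No genome sequence or gene annotation of that build was used here, so sites are named by position and no sequence is shown.

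The libraries differ in how tags pile up, which bears on every level given here. A distinct interval means 1 start with 1 end. It carried on average 31.5 tags over the whole 24-hpf library, 30.7 over the 72-hpf library and 14.4 over the adult library. For members alone an interval carried 48.7, 55.1 and 4.87 tags, with the libraries in the same order. Steady sites kept in the adult, 2527 in all, had an adult level within 2-fold of both embryo levels. For these an interval carried 42.0, 44.5 and 24.9 tags. Members and kept sites were chosen by their tags, so their averages follow in part from the choice. Counted by intervals, members made up 3.91% of the 24-hpf library, 3.28% of the 72-hpf library and 0.752% of the adult library, which is the same direction as by tags and a smaller difference. When the adult ratio was taken from intervals, 234 of the 881 members still passed, an alternative added with the results in view. Intervals at a site can differ only in a few ends and lengths. The chromosome 10 site at 40428902, for example, had 69, 73 and 50 intervals for 18053, 28901 and 1857 tags. From such counts, a limit on the number of intervals and repeated tags cannot be told apart. The part of repeated tags in the adult loss was not tested.

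Members took up 6.03% of all 24-hpf tags (exact 95% interval 6.01% to 6.05%), 5.89% of all 72-hpf tags (5.88% to 5.91%) and 0.254% of all adult tags (0.25% to 0.257%). Their median level was 11.5 CPM in 24-hpf embryos, 11.7 in 72-hpf embryos and 0.535 in adult fish, and the upper quartile in the adult was 1.74 CPM. Between the embryo libraries, 441 of the 881 were higher at 72 hpf, and the median ratio of 72 hpf to 24 hpf was 1.00. The counting interval of that ratio included 1 for 438. The rule holds the ratio within 2-fold either way, so a median near 1 follows in part from the choice. It also depends on the scaling: median-ratio scaling shifted 72 hpf against 24 hpf by -0.213 (log2). In whole animals, fewer cells of a type and less RNA per cell cannot be told apart. The opposite pattern was rarer among steady sites, with 55 sites at least 8-fold above the larger embryo level in the adult, 0.7%. Steady sites needed a minimum level in the embryos and none in the adult, so the choice itself favours lower adult levels. Over all 17028 sites that averaged at least 3 CPM in the embryos, the median adult to embryo ratio was 0.433. The adult level was at most 1/8 at 3379 of these sites, 19.8%. Loss against the smaller embryo level was about as common among all 12309 sites of at least 3 CPM in both embryo libraries, steady or not, at 10.9%. The smaller level is a stricter measure where the embryo levels lie farther apart.

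**Figure D1:**
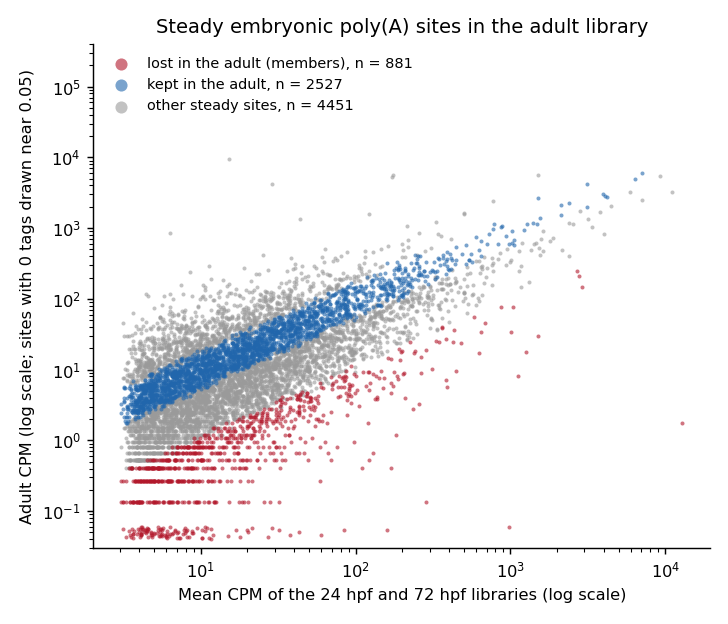
Each point is 1 steady embryonic site, with its mean embryo CPM on the x axis and its adult CPM on the y axis, both on log scales; sites without adult tags are drawn near 0.05 with a small random offset. The 881 members form the lower edge of the cloud by construction. The 2527 kept sites lie higher, with 3258 other steady sites below their range and 1193 above it. At the right, 1 member stands alone, with 13495 and 12268 CPM in the embryos.

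By tags, most members were reduced and not absent. No adult tag was seen at 109 members (12.4%, exact 95% interval 10.3% to 14.7%), and 1 to 3 tags were seen at 268 (30.4%), whereas 262 had at least 10 adult tags and 31 at least 100. The share without an adult tag depends on the rule: it was 26.0% with the adult at most 1/16 and 3.94% at 10 CPM or more. It was 44.9% with the adult ratio from intervals and 93.3% when members were chosen by intervals throughout, where most of the 4684 sites chosen were others. Among the 772 with adult tags, the median level in the adult was 13.6-fold below the smaller embryo level, and 462 lay 8- to 16-fold below it, 195 lay 16- to 32-fold, 81 lay 32- to 64-fold and 34 lay 64-fold or more. How firmly this is counted varies: for 618 of the 772, the exact interval of the fold stayed above 4, and for 244 it stayed above 8. These intervals take each tag as an independent count, which repeated tags are not, so they may be too narrow. A count of 0 allows up to 0.402 CPM in the adult, so for the members without adult tags a fold is a lower bound, from 7.61 to 2385. Their median embryo level, 5.85 CPM, was below that of all members.

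Sites on either side of the threshold were alike. With at least 100 embryo tags, the 5 members closest to it lay 8.02- to 8.05-fold below the smaller embryo level, among them the chromosome 7 plus-strand site at 60872375 with 34.5, 30.1 and 3.75 CPM at 24 hpf, 72 hpf and adult. The 5 steady sites just outside lay 7.92- to 7.99-fold below, among them the chromosome 16 minus-strand site at 31780258 with 35.4, 32.1 and 4.02 CPM. The intervals of these folds overlap widely, as for those sites, at 5.44 to 12.3 for the first and 5.49 to 12.05 for the second against 72 hpf.

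The members with the highest embryo level were led by a single site. The chromosome 19 minus-strand site at 5980626 had 13495 CPM in 24-hpf embryos, 12268 in 72-hpf embryos and 1.74 in adult fish, and it alone gave 22.4% of the member tags at 24 hpf and 20.8% at 72 hpf. Its adult level rests on 13 tags in 5 distinct intervals, 7755-fold below 24 hpf (interval 4535 to 14565). Its embryo levels rest on 100175 tags in 43 intervals at 24 hpf and 120387 tags in 38 intervals at 72 hpf. The fold thus compares strongly repeated tags, and the part that repeats have in it was not tested. Both embryo libraries are high and near each other there, and the adult is close to the level of a few tags. Near it on the same strand, at 5986769, lay the highest member without any adult tag. This site had 988 CPM in 24-hpf embryos, 958 in 72-hpf embryos and 0 in adult fish, at least 2385-fold below 72 hpf. Its same-strand neighbours, defined below, did have adult tags. Summed over the site at 5986769 and these neighbours, the adult to embryo ratio was 0.0627. RNA ends near by on this strand were thus still seen in the adult.

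The next members kept a clear adult level in spite of their fold. The chromosome 14 plus-strand site at 40343886 had 3666 CPM in 24-hpf embryos, 2114 in 72-hpf embryos and 149 in adult fish, 14.2-fold below 72 hpf (interval 13.4 to 15.1). The chromosome 6 minus-strand site at 39239364 had 2083, 3463 and 208 CPM at the same stages, and the chromosome 10 plus-strand site at 40428902 had 2432, 2945 and 249 CPM. These 3 sites are members through their very high embryo levels, and their adult levels of 149 to 249 CPM were far above the upper quartile of all members.

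Between these extremes lay sites with a larger relative loss. The chromosome 7 plus-strand site at 27044148 had 1028 CPM in 24-hpf embryos, 1197 in 72-hpf embryos and 8.03 in adult fish, 128-fold below 24 hpf (interval 99.4 to 168). The chromosome 14 plus-strand site at 25279620 had 1282, 1252 and 17.9 CPM, and the chromosome 23 plus-strand site at 35762941 had 1392, 1608 and 29.9 CPM. In these 3 the embryo libraries lay close together. The chromosome 5 minus-strand site at 30199066 (872, 1145 and 33.5 CPM) and the chromosome 19 plus-strand site at 49384462 (1235, 850 and 77.2 CPM) complete the leading 10.

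**Figure D2:**
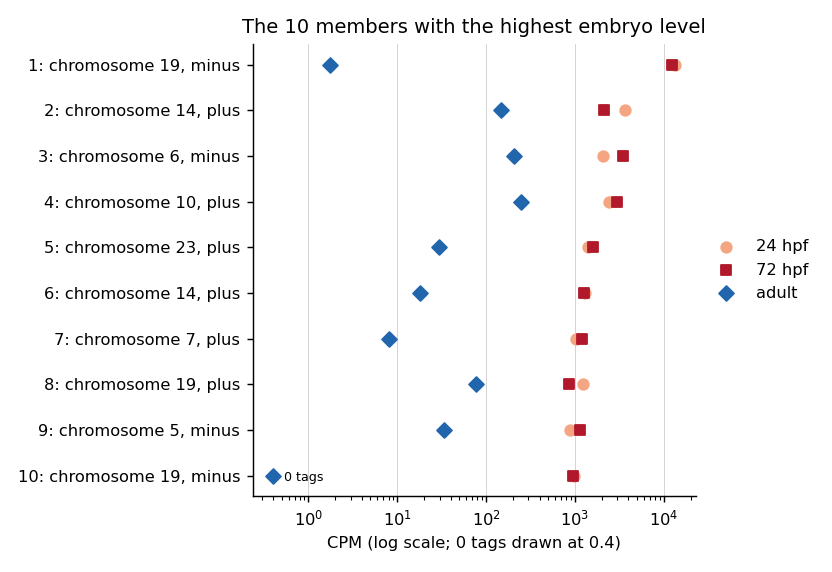
Levels of the 10 members with the highest mean embryo CPM, 1 row per site named by chromosome and strand, with CPM on a log axis at 24 hpf, 72 hpf and in the adult. The embryo symbols lie together in every row, and the adult symbol ranges from 0 tags to 249 CPM.

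Sites without any adult tag reached high embryo levels in a few places. After the chromosome 19 site they were led by the chromosome 3 minus-strand site at 55979228, with 210 CPM in 24-hpf embryos, 107 in 72-hpf embryos and 0 in adult fish. The chromosome 6 plus-strand site at 15199966 had 80.8 and 86.9 CPM in the embryos, the chromosome 16 minus-strand site at 34254249 had 76.9 and 42.3 CPM, and the chromosome 22 minus-strand site at 5748562 had 57.4 and 28.8 CPM. These are exceptions among the 109: of the 231 members above 30 CPM, 7 had no adult tag, whereas of the 211 members at 3 to 6 CPM, 57 had none. The share of steady sites that were members also differed with level, at 14.2% of 1489 sites at 3 to 6 CPM (interval 12.4% to 16.05%), 12.4% of 1960 at 6 to 12, 9.42% of 2080 at 12 to 30 and 9.91% of 2330 above 30 (8.73% to 11.2%). This was not tested, and the lower classes rest on few adult tags.

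Few members were stacks of 1 repeated interval, and 4 had a single interval in either embryo library. Members had a median of 8 distinct intervals at 24 hpf, 10 at 72 hpf and 3 in adult fish, against 9, 11 and 15 at kept sites. The most intervals were found at the chromosome 10 site at 40428902, at the chromosome 6 site at 39239364 (66, 74 and 45), at the chromosome 8 minus-strand site at 51569482 (62, 56 and 37) and at the chromosome 14 site at 25279620 (56, 54 and 18). At most 3 intervals in an embryo library were seen at 72 members, 8.17% (interval 6.45% to 10.2%), and at 121 kept sites, 4.79% (3.99% to 5.69%). The chromosome 14 plus-strand site at 50918794 had 139, 186 and 3 tags, all in 1 interval per library. The chromosome 16 plus-strand site at 39004543 had 2 and 1 intervals, the chromosome 25 minus-strand site at 20340448 had 1 and 2, and the chromosome 8 plus-strand site at 21756181 had 2 and 3, all without adult tags. These 4 had the fewest embryo intervals among members with at least 100 embryo tags, and members of fewer tags can have as few.

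Cleavage position itself was stable. The position with the most tags was the same at 24 and 72 hpf for 782 of 881 members, 88.8% (interval 86.5% to 90.8%), and for 89.4% of the kept sites (88.1% to 90.5%). Where the adult still had at least 4 tags, its leading position was the one of 24 hpf at 419 of 504 members, 83.1% (79.6% to 86.3%), and at 87.2% of the kept sites (85.8% to 88.5%), which have many more adult tags. At 4 to 20 adult tags the shares were 79.2% of 355 members (74.6% to 83.3%) and 72.1% of 43 kept sites (56.3% to 84.7%), with overlapping intervals. The median share of tags at the leading position was 82.3% at 24 hpf and 80.0% at 72 hpf in members, and 80.4% and 78.9% in kept sites. Adult ends farther than 10 nt from a site's leading position fall in other clusters, so the adult shares concern position within a cluster alone. A same-strand cluster 11 to 49 nt away was found at 306 members, and it was kept in the adult at 7 of them, and 818 of the 881 members still met the rule when all tags within 49 nt were summed in each library.

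The level at a neighbouring site was not used to choose the member beside it, but a neighbouring site can itself have been chosen. A neighbour here is a cluster on the same strand 50 to 5000 nt away. It counts as kept when it had at least 3 CPM in the adult and at least 1/2 of its own mean embryo level. Unlike the rule for kept sites, this sets no upper limit, so a kept neighbour can be higher in the adult. Without annotation, a neighbour may belong to another gene, and a neighbour may itself be a member. Both members and kept sites were set by their adult level, so they are 2 ends of 1 scale, read from the same adult library. Members had some neighbour in 722 of 881 cases, 82.0%, and kept sites in 83.9%. A kept neighbour stood beside 103 members, 11.7% (interval 9.64% to 13.999%), against 28.6% of the kept sites (26.9% to 30.4%) and 26.4% of all steady sites. The share depends on the window and the count, at 8.51% of members for neighbours at 50 to 2000 nt, 25.7% at 25 to 20000 nt and 42.1% with sites chosen by intervals, against 25.9%, 45.4% and 63.999% of kept sites. Members were below kept sites in each. The intervals did not overlap, but they take sites as independent. Sites can share neighbours and all come from 1 library per stage, so this is a description and not a test. An embryo neighbour of at least 3 CPM was more common beside members, at 38.7% (35.5% to 42.0%) against 30.2% of kept sites (28.4% to 32.03%), so members did not lack neighbours. Kept neighbours that averaged under 3 CPM in the embryos stood beside 50 members (5.68%) and 365 kept sites (14.4%). Most members thus had no kept neighbour by this rule, and fewer of them had one than in either set of comparison.

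The whole stretch, meaning the site with its neighbours summed, was low in the adult around most members chosen by tags at 1/8. Its adult total was at most 1/8 of the embryo total for 655 members, 74.3% (interval 71.3% to 77.2%), and at least 1/2 for 61, 6.92% (5.34% to 8.81%). The share at most 1/8 was 42.8% when members were chosen by intervals and 43.1% when they were chosen at 1/4, a rule that lets in sites above 1/8. The share of 74.3% is set in part by the choice of members (and that of kept sites by theirs), because 77.4% of the members had the highest embryo level of their stretch. For 159 members (18.0%) the site was the only cluster of its stretch, so the rule alone put the total at most 1/8. Among all steady sites, members included, the total was at most 1/8 for 802 of 7859, 10.2%. The neighbours alone, where they summed to at least 3 CPM in the embryos, had a median adult to embryo ratio of 0.129 around 408 members (quartiles 0.0376 and 0.384), against 0.728 around 925 kept sites (0.39 and 1.33). The quartile ranges of these 2 sets did not overlap, by a small margin. Neighbours that were themselves members or kept sites are included in both. Another member lay within 5000 nt on the strand of 81 members, which therefore share neighbours.

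**Figure D3:**
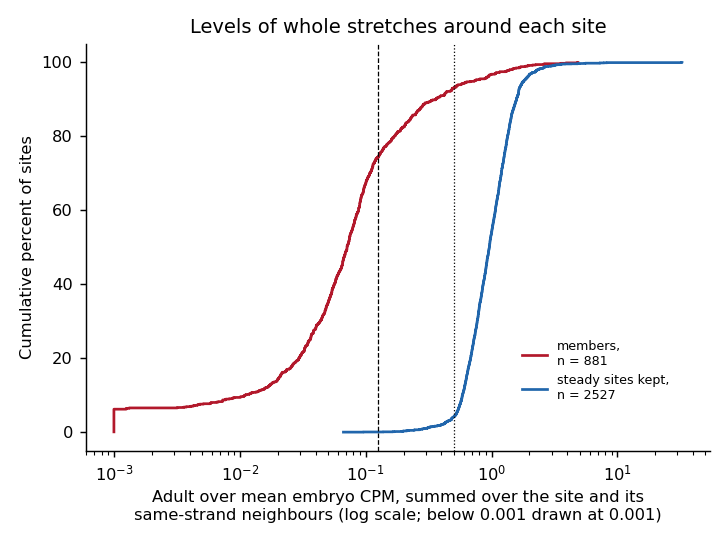
Cumulative percent of sites by the ratio of adult to mean embryo CPM, summed over each site and its same-strand neighbours 50 to 5000 nt away, on a log axis; the dashed line marks 1/8 and the dotted line 1/2. The curve of the 881 members passes the dashed line at 74.3%, and that of the 2527 kept sites is at 0.0791% there.

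On their own strand, the neighbours of members had their lowest adult levels near by. Leaving out neighbours that were themselves members or kept sites, same-strand neighbours of at least 3 CPM had a median adult to embryo ratio of 0.124 at 50 up to 200 nt from members, 0.113 at 200 up to 1000 nt, 0.184 at 1000 to 4999 nt, 0.286 at 5000 to 19999 nt and 0.352 at 20000 to 99999 nt. Around kept sites the same medians were 0.495, 0.434, 0.276, 0.486 and 0.43. Over all 13620 clusters of this kind the median was 0.362, so at the farthest distance the neighbours of members lay close to that level. Within 1000 nt the neighbours of members were lower than those of kept sites, and the upper quartile around members (0.255 and 0.286) lay below the lower quartile around kept sites in the first class (0.296), though not in the second (0.226). The 1000 to 4999 nt class also had the lowest median around kept sites.

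On the opposite strand the difference between the medians was smaller, but low neighbours were again more common around members. Up to 4999 nt, 2 of 11, 8 of 22 and 18 of 90 neighbours of members were at most 1/8 in the adult. Around kept sites these were 4 of 49, 6 of 67 and 33 of 296. The nearest classes rest on few neighbours. In the 2 farther classes the shares were 29.8% and 20% around members, and 13.7% and 16.1% around kept sites. Neighbours on the opposite strand had medians of 0.282 (11 neighbours), 0.316 (22) and 0.426 (90) in the classes up to 4999 nt from members, and 0.404 (49), 0.498 (67) and 0.462 (296) from kept sites, with wide and overlapping quartiles. In the class from 5000 to 19999 nt the medians were 0.253 around members and 0.405 around kept sites, and at 20000 to 99999 nt they were 0.399 and 0.421. The same neighbour can lie near several sites, and neighbours share a library and its scaling, so these medians and shares are a description. A cluster on the opposite strand within 100 nt was found at 44 members, 4.99% (interval 3.65% to 6.65%), and at 6.93% of kept sites (5.97% to 7.99%).

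**Figure D4:**
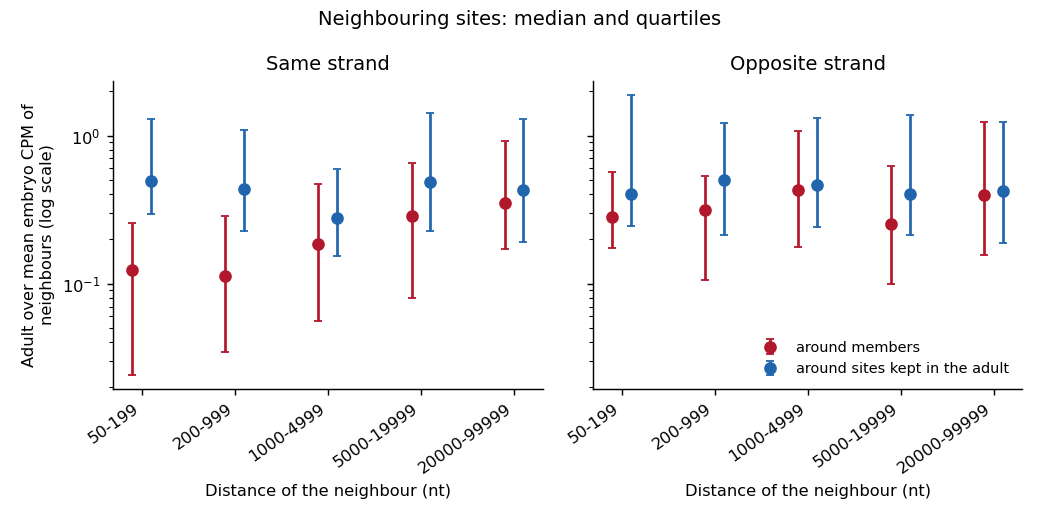
Median (points) and quartiles (bars) of the ratio of adult to mean embryo CPM, on a log axis, for neighbouring clusters of at least 3 CPM that are neither members nor kept sites, by distance in nt, on the same strand (left) and the opposite strand (right). On the same strand the medians around members are 0.124 and 0.113 in the nearest classes and 0.352 in the farthest.

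Where a neighbour was kept, it mostly lay upstream of the member. Of the 100 members with a kept neighbour on 1 side only, 88 had it upstream and 12 downstream, 88.0% upstream (interval 80.0% to 93.6%). Kept sites leaned the same way, with 74.4% upstream (70.8% to 77.6%), as did all steady sites, with 76.1% (74.1% to 78.0%). Members also had more embryo neighbours upstream than downstream, 343 against 208 of at least 3 CPM, and 20.7% of those upstream and 7.69% of those downstream were kept. For kept sites the shares were 67.3% of 490 and 35.7% of 631. In both sets, then, upstream neighbours were kept more often than downstream ones, and the median adult to embryo ratio of downstream neighbours was 0.0601 around members and 0.376 around kept sites, against 0.165 and 0.931 for upstream ones.

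The share of members differed with the place in a row of sites. Among steady sites with another site of at least 3 embryo CPM within 5000 nt on the strand, 184 of 1160 most-downstream sites were members, 15.9% (interval 13.8% to 18.1%), against 118 of 1094 most-upstream sites, 10.8% (9.01% to 12.8%), and 39 of 321 sites in between, 12.1% (8.78% to 16.2%). Steady sites without another such site were members in 540 of 5284 cases, 10.2% (9.42% to 11.1%). The most-downstream sites thus exceeded the 11.2% of all steady sites, and were kept least often, at 25.0% (22.5% to 27.6%) against 33.4% for those without another. These shares were not tested, since sites are not replicates of a stage. In number, sites without another such site made up the largest class of members.

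In some pairs the upstream site held its level and the member did not. Those given here are from the members with the highest adult level at a kept upstream neighbour, chosen after their values were seen. A lower adult share of the member follows from the choice of such pairs, so the shares show its size and not its direction. On chromosome 20, plus strand, the member at 49074000 had 177 CPM in 24-hpf embryos, 144 in 72-hpf embryos and 14.6 in adult fish, while its neighbour 797 nt upstream at 49073203 had 165, 65.6 and 206 CPM. The member thus took 51.8% of the pair's 24-hpf tags (interval 49.8% to 53.7%), 68.8% of its 72-hpf tags (66.7% to 70.8%) and 6.62% of its adult tags (5.47% to 7.93%). The downstream end was about level with the upstream one at 24 hpf, the larger at 72 hpf and the smaller in the adult.

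In the next pairs the upstream site was the larger or level with the member in the embryos. On chromosome 21, minus strand, the member at 39577572 had 43.5, 31.4 and 2.94 CPM at 24 hpf, 72 hpf and adult. The neighbour 1103 nt upstream at 39578675 had 47.1, 47.8 and 88.7 CPM. The member's share was thus 48.0% (44.2% to 51.8%), 39.6% (36.2% to 43.2%) and 3.21% (2.02% to 4.82%). On chromosome 1, minus strand, the member at 54219552 went with a neighbour 438 nt upstream and took 26.7% (23.4% to 30.2%), 20.3% (17.6% to 23.1%) and 1.82% (0.973% to 3.09%) of the tags. On chromosome 1, plus strand, the share of the member at 7594340 differed more between the embryos, at 14.9% (11.2% to 19.2%) and 48.2% (40.5% to 56.0%), because the neighbour had 37.7 CPM at 24 hpf and 8.87 at 72 hpf, and it was 0.893% in the adult (0.328% to 1.93%). In each of these pairs the upstream site had more CPM in the adult than in either embryo library, and the member had less. This was not so for every member with a kept upstream neighbour. On chromosome 20, plus strand, the neighbour of 51459746 had 363, 185 and 153 CPM. On chromosome 4, minus strand, the neighbour of 15923471 had 178, 57.6 and 151 CPM. On chromosome 24, minus strand, that of 35829671 had 113, 66.3 and 94.0 CPM.

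In other pairs the member was a minor end already in the embryos. On chromosome 9, plus strand, the member at 36895300 took 16.7%, 12.7% and 0.113% of its pair's tags, with 118 adult CPM at the neighbour 1154 nt upstream. On chromosome 4, plus strand, the member at 8665171 took 14.5% (interval 10.5% to 19.3%), 14.3% (9.92% to 19.7%) and 0 of the adult tags (up to 0.645%). Kept neighbours downstream were few. On chromosome 21, plus strand, the member at 13952228 had 7.95, 10.1 and 0.134 CPM, and the neighbour 556 nt downstream at 13952784 had 49.7, 71.5 and 174 CPM. Here the downstream end was the one that was higher in the adult.

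**Figure D5:**
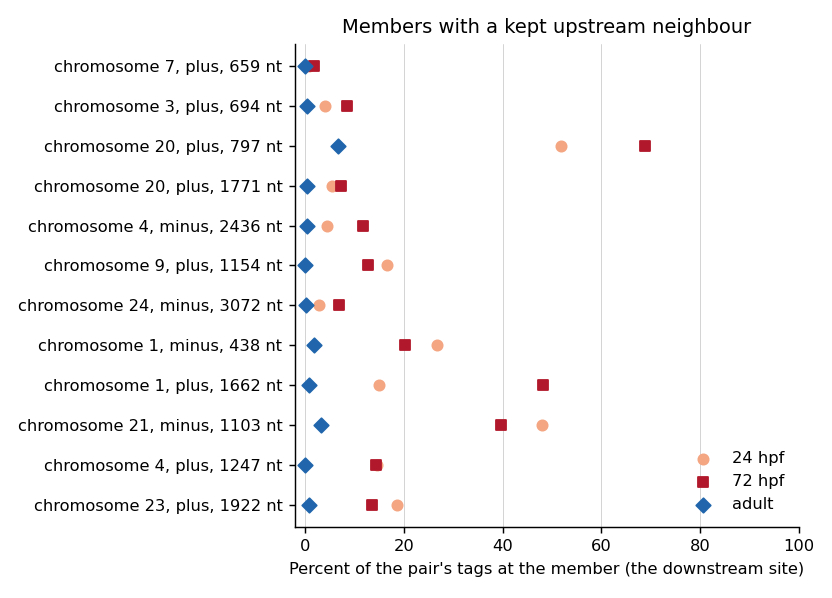
Share of the tags of a pair found at the member, the downstream site, at 24 hpf, 72 hpf and in the adult, for the 12 members with the highest adult level at a kept upstream neighbour; rows give chromosome, strand and distance between the sites. In every row the adult share is below both embryo shares, which the choice of the pairs fixes, as in the chromosome 20 pair at 797 nt, with 51.8% and 68.8% in the embryos and 6.62% in the adult.

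A different arrangement was seen where the neighbour was far stronger than the member. The members with the highest adult level at any neighbour were small ends beside abundant ones. The chromosome 8 minus-strand member at 47909053 had 9.30, 14.1 and 0.803 CPM, 456 nt downstream of a site with 11194, 10808 and 3186 CPM. The chromosome 7 plus-strand member at 31297125 (6.47, 6.62 and 0.803 CPM) lay 151 nt downstream of a site with 4988, 24926 and 1459 CPM, and the chromosome 3 plus-strand member at 15853771 (7.68, 6.32 and 0.268 CPM) lay 1348 nt downstream of one with 2660, 3682 and 1356 CPM. These neighbours were themselves lower in the adult, against 24 hpf by less than the member. Against 72 hpf this did not hold for the chromosome 7 pair. There the member's share of the pair's tags was 0.0266% at 72 hpf and 0.055% in the adult. On chromosome 7, plus strand, the member at 60141001 (6.60, 8.56 and 0.535 CPM) lay 659 nt downstream of a site that was kept, with 730, 466 and 747 CPM. On chromosome 14, minus strand, the members at 48570165 (4.71, 4.89 and 0 CPM) and 33741645 (6.87, 8.36 and 0.669 CPM) lay 1499 and 3101 nt upstream of sites with 503 and 376 adult CPM. Small members of this kind held at most 0.896% of the pair's tags at 24 hpf, except the member at 48570165, whose neighbour had 100.8 CPM at 24 hpf and 971 at 72 hpf.

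Members were spread over the genome. They lay on all 25 chromosomes, 441 of 881 on the plus strand, and 19 on unplaced scaffolds. The share of steady sites that were members ranged from 7.5% on chromosome 4 (15 of 200, interval 4.26% to 12.1%) to 16.2% on chromosome 14 (50 of 308, interval 12.3% to 20.8%). Chromosome 14 alone had an interval that left out the 11.2% of all steady sites. With 25 chromosomes compared, 1 such interval can arise by chance alone. The intervals also take sites as independent, and some members of chromosome 14 lay side by side. Whether chromosome 14 differs from the others was not tested. Of 2198 bins of 500 kb with a steady site, 685 held a member, 540 of them exactly 1, and 10 held at least 4.

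The fullest bins were of different kinds, and bins with equal numbers were ordered by embryo level. On chromosome 3 from 55.5 to 56 Mb, 6 of 9 steady sites were members, all on the minus strand, summing to 268 CPM in 24-hpf embryos, 157 in 72-hpf embryos and 0.268 in adult fish. Their 2 adult tags were both at 55896029, and the sites at 55745023, 55979228, 55990075, 55990086 and 55998295 had none. Of the 5 fullest bins it had the lowest adult sum. On chromosome 23 from 21.5 to 22 Mb, 5 of 9 were members, on both strands, summing to 169, 108 and 6.56 CPM and led by the minus-strand site at 21746702 with 119, 66.9 and 4.28 CPM.

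Elsewhere the members of a bin lay side by side. On chromosome 10 from 40 to 40.5 Mb, the 4 members lay within 296 nt around 40428902, which held most of their 2494, 3025 and 254 CPM. On chromosome 14 from 25 to 25.5 Mb, 3 of the 4 members lay within 334 nt on the plus strand, at 25279286 (16.8, 17.6 and 0.669 CPM), 25279514 (245, 170 and 4.02 CPM) and 25279620. They shared their pattern, with adult levels 25.2-, 61.0- and 71.5-fold below 24 hpf. On chromosome 14 from 40 to 40.5 Mb, 4 of 14 steady sites were members and 40343886 held most of the 3809, 2242 and 162 CPM.

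Some members had a near-equal counterpart elsewhere. Of 681 members with at least 100 embryo tags, 18 had a cluster elsewhere whose embryo intervals matched theirs within counting noise, and for 14 of these that cluster was another member. A match also needed at least 20 intervals, so members with few intervals could be missed. No share for other steady sites is set beside this count, so it says nothing particular to members. On chromosome 17, plus strand, the sites at 27667089 and 27869780 had 733 and 743 tags in 24-hpf embryos, 678 and 704 in 72-hpf embryos and 51 and 53 in adult fish, and the sites at 27667112 and 27869803 matched as well. On chromosome 14, plus strand, 40182625 and 40287858 had 479 and 471, 538 and 577, and 43 and 41 tags. On chromosome 16, minus strand, 34121872 and 34254249 had 578 and 571 tags in 24-hpf embryos, 399 and 415 in 72-hpf embryos and 6 and 0 in adult fish. The chromosome 3 site at 55979228 (1556, 1052 and 0 tags) matched 55972046 (1577, 1032 and 0), which was no member because its embryo levels differed by slightly more than 2-fold. They are counted as separate sites here, and how tags with several genomic matches were placed is not stated by the sources. Leaving out the 18 left 863 members, with a kept neighbour at 11.7% of them.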

How the data were processed

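The deposited files hold 3P-Seq intervals with a strand and a whole number, read here as the count of tags, which the authors left unscaled as far as the values show. Alignment was with Bowtie to Zv9 (danRer7), per the submitters' processing notes. Its version and its treatment of multiple matches are not stated by those notes. The 3′ end was the end of plus-strand and the start of minus-strand intervals. Ends of the 3 libraries were pooled per strand, each position absorbing others within 10 nt from the most tags down, and clusters of at least 4 tags were kept. Python 3.11.15, pandas 2.3.3 and scipy 1.17.1 were used. The clustering and the member rule were tested on simulated sites that lay apart and had independent tags. The later steps were not tested in this way. Shares have exact Clopper-Pearson 95% intervals, folds exact conditional ones, and 0 tags were set to a floor of 3. Both cover counting error only, since copied tags are not independent. Near-equal clusters had embryo totals within 1.1-fold, at least 20 intervals and a chi-square per degree of freedom under 1.6.

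Each stage has 1 library, so no p-value is given and differences are between libraries, not tested stages. Named sites were the 10 of highest embryo level, the 5 highest without adult tags, the 5 on each side of the threshold, the 6 with the strongest adult neighbour, those with the most and fewest intervals, and the 5 fullest bins (ties by embryo level, a rule added later); others were chosen after their values were seen. Members and lists were chosen with earlier results of these data known.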

Additional observations from a re-analysis of the deposited data

How the results depend on the processing

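The values depend on the scaling, the thresholds and what is counted. Median-ratio scaling raised the adult by 0.32 (log2) against 24 hpf and 0.54 against 72 hpf, left 588 members (548 of them among the 881) and moved the share of steady sites to 7.77%. At 10 CPM or more, 431 members were 9.75% of steady sites, with 82.8% of stretches at most 1/8 in the adult. At 1/16, 419 members were 5.33%, with a kept neighbour at 8.11% and 81.6% of stretches low; at 1/4, 1825 were 23.2%, with 17.3% and 43.1%. Distinct intervals in place of tags gave 4684 members, 18.1%, with a kept neighbour at 42.1%, upstream in 70.3%, and 42.8% of stretches low; 1 interval is then worth 4.24 CPM at 24 hpf and 3.13 at 72 hpf, so 1 interval meets the 3 CPM minimum. With steady sites by tags and the adult ratio from intervals, an alternative chosen after seeing the data, there were 243 members (3.09%), 234 of them among the 881, with a kept neighbour at 8.64% and 79.0% of stretches low. Members that also passed with all tags within 49 nt, likewise added, were 10.4% of steady sites. Neighbours at 50 to 2000 nt gave a kept neighbour at 8.51%, and at 25 to 20000 nt at 25.7%. Clusters of at least 20 tags left 78.4% of stretches low. The causes were not tested. Windows of 24 nt, single linkage, thinning, the 1.5-fold limit, no region left out and leaving out members with near-equal clusters (added) moved none of the kept-neighbour, upstream and stretch shares and the share of steady sites beyond its interval, nor the number of members by more than 1.5-fold. The upstream and stretch shares were chosen after seeing the data. The members' share of embryo tags and their share without an adult tag, moved beyond their intervals in 29 values and stayed within in 13; the share without an adult tag ran from 3.94% (10 CPM or more) to 93.3% (distinct intervals). Over all settings the upstream share ran from 70.3% to 90.5%. No paired analysis was possible because each stage has 1 library. At 0.134 CPM per adult tag, members of low embryo level rest on few adult tags.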
